A study of Homo sapiens with 2 samples.

Results

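The CDKN2A locus on the short arm of chromosome 9 was examined peak by peak in a mixture of 5 human lung adenocarcinoma lines. The members were the peaks of accessible DNA on chromosome 9 that start between 15 and 30 Mb of the GRCh38 build, 530 of 187920 peaks in all, together with the 100 of 36601 gene entries that start in the same span. Every one of the 530 peaks held at least 1 count in the called barcodes, 143 held the 100 or more counts that were taken as measured, and 41 of the 100 gene entries held the 20 or more RNA molecules taken as measured. The span was selected on the peak counts themselves, which earlier work on these data had found low around CDKN2A in some lines, so the peak counts below are a description and carry no test. The last peak left of the span, at 14992832, had between 20 and 240 counts in the 5 lines, and the first inside, at 15104539, between 0 and 25. The last inside, at 29965974, had between 1 and 44, and the first beyond, at 30065560, between 4 and 8.

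The lines A549, H838, H1975, H2228 and HCC827, all established from human lung adenocarcinomas, were grown apart with no treatment named, frozen and then combined in equal parts. A single droplet capture was divided into portions of 80% and 20%, and of the larger portion 1 RNA and 1 ATAC library are described here. ATAC-seq cuts open chromatin and counts fragments per peak, and each barcode marks 1 droplet in which RNA and open DNA were read together. With 1 culture per line and 1 library of each kind there were no replicates, so every interval covers counting error only and no p-value was made.

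No file says which line a barcode came from, so barcodes were told apart by marker RNA from genes outside chromosome 9. Of 2804 barcodes that passed the quality limits, 1783 were called: 543 of the A549-like line, 334 of a line named here by its leading genes S100A9/CST1, 437 of the SLC30A8/MAGEA10 line, 325 of the HCC827-like line and 144 of the DHRS2/ZNF676 line. All 8 A549 markers were highest in the A549-like line and all 6 HCC827 markers in the HCC827-like line. Among the latter, CEACAM6 in the S100A9/CST1 line stood at 97.0% of its HCC827-like level. EGFR, VOPP1, LANCL2 and SEC61G all lie on chromosome 7. The other lines were not matched to a name. The called barcodes summed to 15994001, 14784201 and 9183239 peak counts in the first 3 lines, and to 5804939 and 4869793 in the HCC827-like and DHRS2/ZNF676 lines. RNA molecules, counted as unique molecular identifiers (UMIs), summed to 3409207, 6027675, 4413508, 4608881 and 2280532 in the same order. The median mitochondrial share of UMIs was 0.400%, 9.15% and 0.413% in the first 3 lines, and 13.8% and 9.94% in the other two; its part in the results was not tested. Values below are CPM, counts scaled to 1000000 of a line's own total, of peak counts for peaks and of UMIs for RNA. Among markers of cells outside the mixture, HBB and HBA1 were at 0 in every line. Of 3 endothelial markers, PECAM1 reached 101 CPM in the S100A9/CST1 line, where KDR had 0 UMIs and EMCN 7. PECAM1 was at most 12.9 CPM in the other lines. Of 4 immune markers, PTPRC had 40 UMIs and CD14 45 in the S100A9/CST1 line, the most of the 5 lines, and CD3E and CD79A had 1 and 0. The part of these markers in the results was not tested.

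CDKN2A is a tumour suppressor gene with a pair of promoters and overlapping reading frames. One product, p16INK4a, inhibits the kinases CDK4 and CDK6 and so keeps RB active, and the other, ARF, inhibits MDM2 and so stabilises p53. Its neighbour CDKN2B encodes the related inhibitor p15, and MTAP encodes the enzyme that recycles methylthioadenosine in methionine salvage. CDKN2B-AS1 is a long noncoding RNA that starts within CDKN2A, on the other strand. Deletions of this locus are frequent in lung cancer, often take MTAP with them, and one is known in A549. DNA copy number was not measured here, and a peak without counts does not by itself tell missing DNA from closed DNA.

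The promoters on which the comparison turns are shown first, because each lies under a peak that was near 0 in some lines and strong in others, wholly or, for the upstream CDKN2A promoter, in 187 of its 300 bases. They come from RefSeq (GRCh38.p14), run from 250 bases before to 50 after an annotated start, and are given 5′ to 3′ on the gene's strand with the GC box letters GGGCGG, searched on both strands, in capitals. The first CDKN2A promoter is the upstream one, used for ARF, and the second is that of p16INK4a.
MTAP promoter, chr9:21802386-21802685, plus strand: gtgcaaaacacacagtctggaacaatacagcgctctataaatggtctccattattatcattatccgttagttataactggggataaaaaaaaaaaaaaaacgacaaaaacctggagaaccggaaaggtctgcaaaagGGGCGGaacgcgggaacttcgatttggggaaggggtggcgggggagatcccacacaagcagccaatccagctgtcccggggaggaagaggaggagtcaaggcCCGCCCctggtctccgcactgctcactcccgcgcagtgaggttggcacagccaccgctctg
CDKN2A upstream promoter, chr9:21995275-21995574, minus strand: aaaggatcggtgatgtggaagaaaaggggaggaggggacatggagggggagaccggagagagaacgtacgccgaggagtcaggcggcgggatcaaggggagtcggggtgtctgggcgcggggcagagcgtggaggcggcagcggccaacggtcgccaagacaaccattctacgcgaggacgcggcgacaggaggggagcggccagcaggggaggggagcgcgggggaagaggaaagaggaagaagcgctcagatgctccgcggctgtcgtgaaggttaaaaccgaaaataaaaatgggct
CDKN2A p16INK4a promoter, chr9:21974808-21975107, minus strand: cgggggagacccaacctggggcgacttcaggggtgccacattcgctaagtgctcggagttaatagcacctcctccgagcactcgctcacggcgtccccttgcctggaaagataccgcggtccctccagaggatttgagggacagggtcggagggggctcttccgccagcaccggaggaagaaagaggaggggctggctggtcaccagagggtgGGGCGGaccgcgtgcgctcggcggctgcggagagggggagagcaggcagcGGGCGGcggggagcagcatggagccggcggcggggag
CDKN2B promoter, chr9:22009256-22009555, minus strand: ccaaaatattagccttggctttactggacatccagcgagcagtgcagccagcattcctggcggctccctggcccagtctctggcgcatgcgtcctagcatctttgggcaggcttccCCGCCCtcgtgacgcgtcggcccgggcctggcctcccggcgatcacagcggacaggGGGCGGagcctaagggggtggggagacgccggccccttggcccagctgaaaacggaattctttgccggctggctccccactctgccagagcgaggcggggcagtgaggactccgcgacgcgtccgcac
The MTAP, p16INK4a and CDKN2B promoters each held 2 matches and the upstream CDKN2A promoter 0, where 45.0% of 35116 RefSeq promoters of this length held at least 1. The 4 sequences held 15, 28, 26 and 25 CpG dinucleotides in the order shown, against a median of 14 over all promoters.

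Across the centre of the locus the A549-like, S100A9/CST1 and SLC30A8/MAGEA10 lines had almost no peak counts, while the HCC827-like and DHRS2/ZNF676 lines had strong peaks. The peak over the p16INK4a promoter (chr9:21974598-21975509) had 0.125, 0.135 and 0.436 CPM in the A549-like, S100A9/CST1 and SLC30A8/MAGEA10 lines, against 15.7 and 11.1 CPM in the HCC827-like and DHRS2/ZNF676 lines. The peak over the start of CDKN2B-AS1, just inside the upstream CDKN2A start (chr9:21994154-21995028), had 0, 0.0676 and 0.218 CPM in the first 3 lines, against 31.0 and 15.2 CPM in the last 2. The smaller peak over the upstream CDKN2A promoter itself (chr9:21995388-21996058) had 0 counts in each of the first 3 lines, against 10.5 and 4.31 CPM. The split was the same at the next gene. The CDKN2B promoter peak (chr9:22008944-22009735) had 0, 0.271 and 0.436 CPM, against 36.0 and 20.7 CPM. At all of these peaks the lines split the same way. In the A549-like line 3 counts amount to 0.188 CPM. The interval of a count of 0 reaches higher, as it treats 2 counts as 1 fragment.

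**Figure D1:**
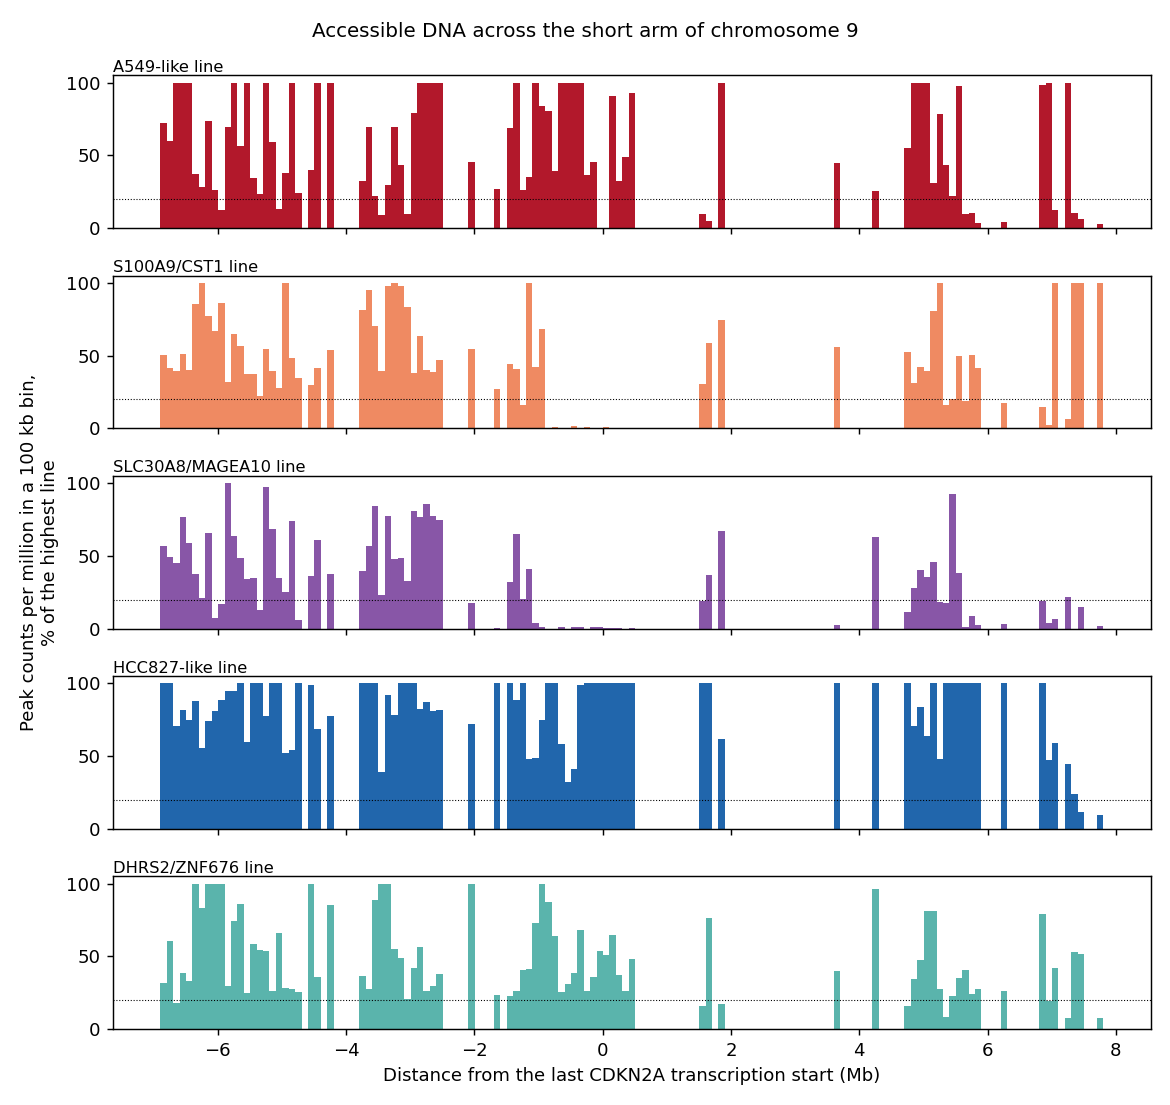
CPM of peaks in 100 kb bins across the span, as a percent of the line with the most, for each line; the x axis is the distance in Mb from the last CDKN2A start, bins with fewer than 100 counts over all lines are left blank, and the dotted line marks 20%. The A549-like, S100A9/CST1 and SLC30A8/MAGEA10 lines drop to near 0 around CDKN2A over different widths, while the HCC827-like and DHRS2/ZNF676 lines keep counts there.

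A peak was called low in a line when its CPM was at most 20% of that in the highest line, and an empty stretch was the best-scoring run of measured peaks across CDKN2A, with 1 point for each low peak and 3 taken off for any other. Low peaks were common anywhere in the genome, so the background matters: of 81028 measured peaks, 31% were low in the A549-like line, 14.9% in the S100A9/CST1 line, 29.1% in the SLC30A8/MAGEA10 line, 20% in the HCC827-like line and 19.3% in the DHRS2/ZNF676 line. Within the span 40, 47 and 70 of 143 measured peaks were low in the first 3 lines, and 11 and 35 in the last 2. Outside the 3 empty stretches the numbers were 31, 16 and 36 of 109 in the first 3 lines, and 8 and 29 in the last 2. Inside the stretches low peaks followed one another without a break, mostly with counts near 0. The search picks out runs of low peaks, so their unbroken order follows in part from how a stretch was defined.

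The A549-like line had the shortest empty stretch. It ran from chr9:21836189 to 22103916, 267.7 kb that held 7 measured peaks, all low, and 19 peaks in all. These 19 peaks held 8 counts in the A549-like line, against 1207 in the HCC827-like line and 506 in the DHRS2/ZNF676 line. In CPM this was 0.241% of the HCC827-like level (95% interval 0.0653% to 0.619%), and the DHRS2/ZNF676 line was at 49.97%. The highest of the 7 measured peaks stood at 1.07% of the highest line. Its score of 7 was under the minimum of 8 set for the other lines, so it is reported with a minimum of 5 that was chosen after its values were seen. With seed markers only (the first short marker list), with peaks counted as present or absent per barcode, and with a minimum of 400 counts per peak, no such run was found in the A549-like line (0 peaks).

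Both of its edges fell within gene bodies. On the left, the last peak with counts (chr9:21831771-21832683) had 64 counts in the A549-like line and the next (chr9:21836189-21837107) had 0, against 136 in the HCC827-like line and 51 in the DHRS2/ZNF676 line. The edge between them lies inside MTAP, which RefSeq places at chr9:21802636-21941115, so that the MTAP promoter stayed outside and the 3′ part of the gene inside. The MTAP promoter peak (chr9:21802143-21803063) had 38.4 CPM in the A549-like line, against 37.6 CPM in the HCC827-like line and 14.0 CPM in the DHRS2/ZNF676 line. On the right, 4 peaks under the measured minimum, from 22106951 to 22120166, had 0 counts in the A549-like line, against 18 to 49 in the HCC827-like line and 4 to 8 in the DHRS2/ZNF676 line. The next peak (chr9:22124332-22125219) had 15 counts, and the following ones (starting at 22143973 and 22147836) had 23 and 76. With these thin peaks the stretch without a peak of 10 counts measured 291.6 kb, and 19 of its 23 peaks had no count. CDKN2B-AS1 runs in RefSeq from 21994791 to 22128142, so its start lay inside the stretch and its last bases outside.

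**Figure D2:**
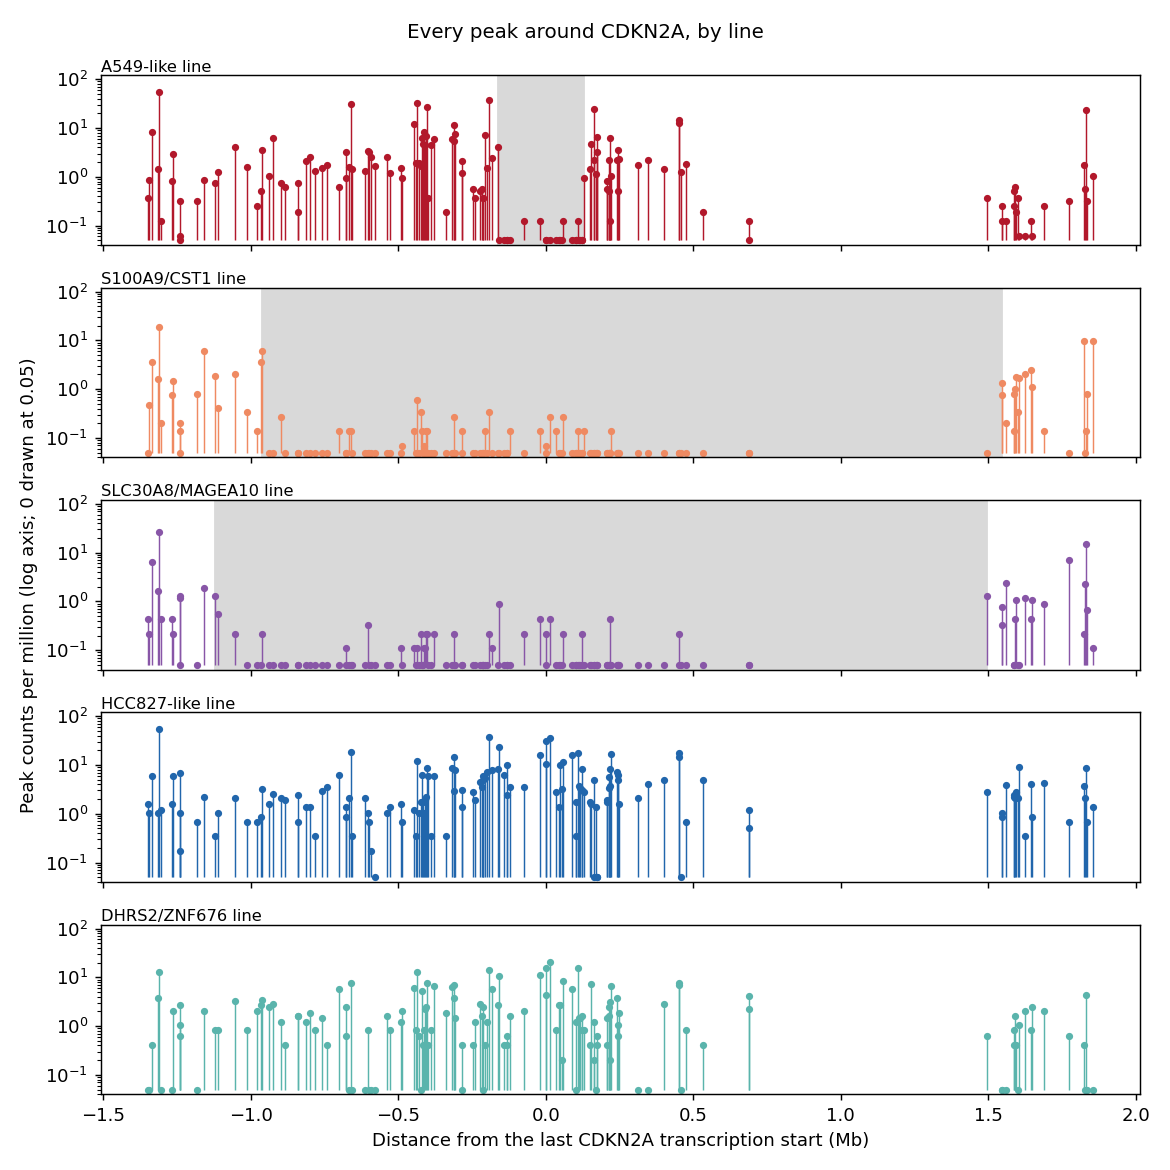
Every peak within about 2 Mb of CDKN2A, in CPM on a log axis with 0 drawn at 0.05, against the distance in Mb from the last CDKN2A start; the grey band is the stretch around CDKN2A between the nearest peaks with at least 10 counts in that line. The band is 291.6 kb wide in the A549-like line, 2510 kb in the S100A9/CST1 line and 2619 kb in the SLC30A8/MAGEA10 line. Bands were drawn for these lines only. In the HCC827-like and DHRS2/ZNF676 lines the longest stretch of the span without a peak of at least 10 counts was 1850 kb. It ran from 23826883 to 25677305 and held 2 listed peaks.

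The S100A9/CST1 line had an empty stretch that took in the whole A549-like one. It ran from chr9:21069896 to 22447604, 1378 kb with 31 measured peaks, every one low and none above 2.31% of the highest line. Its 104 peaks held 68 counts, which was 0.795% of the HCC827-like level in CPM (95% interval 0.548% to 1.12%). With Leiden clusters in place of called barcodes, which take in those given to no line, the run started at 21.58 Mb and stood at 16.2%. The A549-like line, by contrast, had 6093 counts over these peaks. The MTAP promoter peak had 5 counts (0.338 CPM) in the S100A9/CST1 line. The left edge fell just beyond HACD4, an enzyme of fatty acid elongation: the peak at its start (chr9:21031196-21031979) had 90 counts and was highest in this line, and the next peaks, at 21056710 and 21069896, had 0.

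The right edge of this stretch was held less tightly, because peaks were sparse beyond DMRTA1. The DMRTA1 promoter peaks (chr9:22446590-22447040 and chr9:22447136-22447604) had 0 counts each in the S100A9/CST1 line, against 83 and 100 in the HCC827-like line and 34 and 38 in the DHRS2/ZNF676 line. The 5 peaks between 22452203 and 22684074, all under the measured minimum, also had 0 counts in it. The files list no peak between 22684074 and 23491947. The peak at 23491947 had 0 counts and that at 23541972 had 11, so by peaks of 10 or more counts the stretch reached 2510 kb, with 86 of its 111 peaks at 0.

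By runs of measured peaks the SLC30A8/MAGEA10 line had the longest, from chr9:20940789 to 23822175, 2881 kb with 34 measured peaks, all low. Its 131 peaks held 215 counts, or 3.67% of the HCC827-like level (95% interval 3.004% to 4.47%). The order of the 2 long runs turned with the counting: with peaks counted as present or absent per barcode they ran from 21.33 to 22.45 Mb in the SLC30A8/MAGEA10 line and from 21.33 to 23.83 Mb in the S100A9/CST1 line, and with every peak of 1 count taken from 20.94 to 22.68 Mb and from 21.06 to 23.49 Mb. The SLC30A8/MAGEA10 run was not equally empty throughout. Left of 22684074 its peaks had at most 8 counts, while beyond the gap without peaks that at 23491947 had 12 counts, that at 23556174 had 22 and that at 23769224 had 66. The run crossed them because they fell under the measured minimum and the next measured peak, at the ELAVL2 start (chr9:23821295-23822175), had 2 counts against 141 in the S100A9/CST1 line. Between the nearest peaks with 10 counts, at 20872227 and 23491947, the stretch was 2619 kb, and 90 of its 116 peaks had no count. Summed, they held 61 counts, 1.11% of the HCC827-like level (95% interval 0.737% to 1.57%).

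On the left the edge of the SLC30A8/MAGEA10 stretch lay inside FOCAD, a large gene at chr9:20655625-20995950. The peaks starting at 20835368 and 20872227 had 17 and 12 counts, that at 20884730 had 5 and that at 20940789 had 2. HACD4, which the S100A9/CST1 line kept, lay inside: its start peak had 2 counts in the SLC30A8/MAGEA10 line, against 19 in the HCC827-like line and 17 in the DHRS2/ZNF676 line.

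As runs of measured peaks the stretches were nested. Between the nearest peaks with 10 counts they were not, as the S100A9/CST1 stretch then reached 23541972 on the right and the SLC30A8/MAGEA10 one 23491947. In the core from 21836189 to 22103916, common to all 3, summed peaks were at 0.500 CPM in the A549-like line, 1.15 CPM in the S100A9/CST1 line and 2.40 CPM in the SLC30A8/MAGEA10 line, against 208 CPM in the HCC827-like line and 104 CPM in the DHRS2/ZNF676 line. From 21069896 up to the core, where MTAP, KLHL9 and MIR31HG start, the S100A9/CST1 and SLC30A8/MAGEA10 lines were at 3.18 and 2.40 CPM. The A549-like line was at 284 CPM there, against 235.5 CPM in the HCC827-like line and 137 CPM in the DHRS2/ZNF676 line. From the core to 22447604 the S100A9/CST1 and SLC30A8/MAGEA10 lines were at 0.271 and 0.871 CPM and the A549-like line at 96.5 CPM, against 135 CPM in the HCC827-like line and 57.3 CPM in the DHRS2/ZNF676 line. Only the zone from 20940789 to 21069895 told the 2 long stretches apart on the left, with 12.2 CPM in the S100A9/CST1 line and 0.436 CPM in the SLC30A8/MAGEA10 line.

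Flanking DNA was open in every line. Between 15 and 20.9 Mb the peaks summed to 1102, 710 and 836 CPM in the A549-like, S100A9/CST1 and SLC30A8/MAGEA10 lines, against 1235 and 626 CPM in the HCC827-like and DHRS2/ZNF676 lines. Between 23.9 and 30 Mb they summed to 352, 253 and 150 CPM, against 510 and 229 CPM. The DHRS2/ZNF676 line thus stood at 50.7% of the HCC827-like line left of the locus, at 49.97% in the core and at 45.0% right of it.

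Runs of low peaks were also sought on all chromosomes with the minimum score of 8. The S100A9/CST1 line had 31 such runs, and the one at CDKN2A was the emptiest, at 0.795% of the highest line, with a median of 7.45% over the 31, and the third by score. In the SLC30A8/MAGEA10 line 181 runs were found, with a median of 11.7%, and that at CDKN2A was the third emptiest and the fifth by score. The A549-like line had 184 runs elsewhere, the emptiest at 2.86%. Its stretch at CDKN2A was at 0.241% but scored too low to be among them. Runs elsewhere that scored under 8 were not sought, so the 0.241% has no like set to be ranked in.

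The same peak counts were then split by barcode, which describes the stretch further and is no separate support for it. Barcodes of a line come from 1 culture, so the interval covers counting error only. In the core, 4 of 543 A549-like barcodes had any count (0.737%, exact binomial interval 0.201% to 1.88%), as did 8 of 334 S100A9/CST1 barcodes (2.40%) and 11 of 437 SLC30A8/MAGEA10 barcodes (2.52%). By contrast 210 of 325 HCC827-like barcodes (64.6%) and 97 of 144 DHRS2/ZNF676 barcodes (67.4%) had one. Depth differed, with medians of 24066, 31003 and 17549 peak counts per barcode in the first 3 lines, and 12144 and 29768 in the last 2. Thinned to 5000 counts per barcode, with 49, 21, 33, 69 and 13 shallower barcodes left out in the same order, the shares were 0.202%, 0.320% and 1.49%, against 53.5% and 28.2%. No A549-like or SLC30A8/MAGEA10 barcode had more than 2 counts in the core, the usual count of 1 fragment. Of the 1021 barcodes given to no line, 365 (35.7%) had a count.

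**Figure D3:**
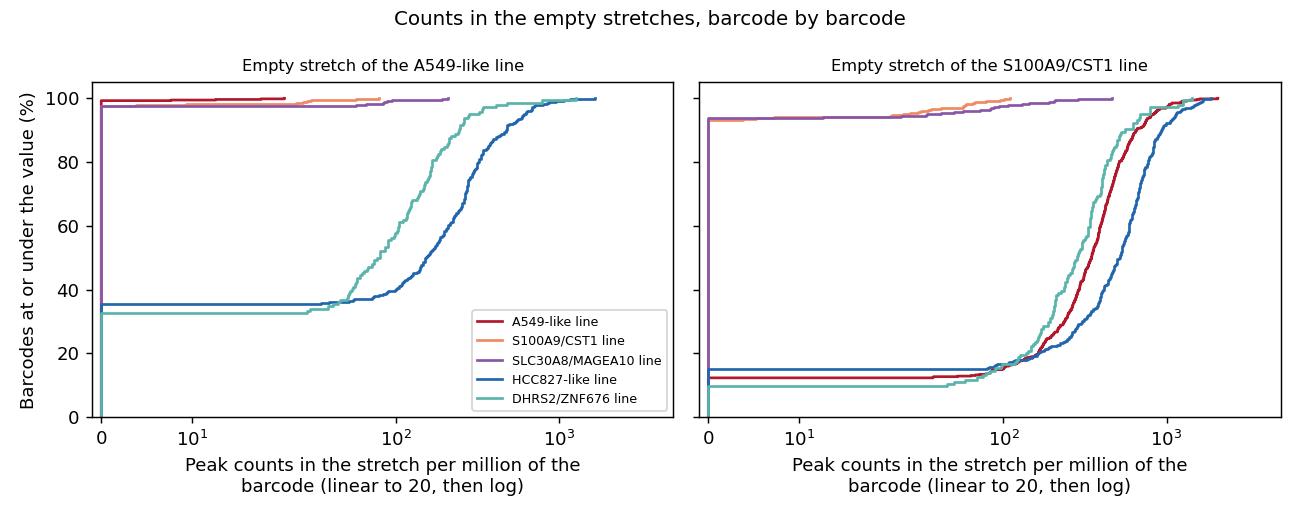
Share of barcodes (y axis, %) at or under a given CPM of their own peak counts (x axis, linear up to 20 and log beyond) in the A549-like stretch (left) and the S100A9/CST1 stretch (right), 1 curve per line. On the left 0.737%, 2.40% and 2.52% of A549-like, S100A9/CST1 and SLC30A8/MAGEA10 barcodes lie above 0, against 64.6% and 67.4% of HCC827-like and DHRS2/ZNF676 barcodes; on the right the A549-like curve lies with those of the HCC827-like and DHRS2/ZNF676 lines, at 87.7% above 0.

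RNA of the genes in the core was near 0 where their promoter peaks were. CDKN2A had 13, 16 and 4 UMIs in the A549-like, S100A9/CST1 and SLC30A8/MAGEA10 lines (3.81, 2.65 and 0.906 CPM), against 1467 and 232 UMIs in the HCC827-like and DHRS2/ZNF676 lines (318 and 101.7 CPM, 95% intervals 302 to 335 and 89.1 to 116). CDKN2B had 0 UMIs in each of the first 3 lines, with 95% intervals up to 1.08, 0.612 and 0.836 CPM, against 54.9 and 17.5 CPM. With Leiden clusters CDKN2A stood at 9.90, 48.3 and 6.64 CPM in the first 3 lines, and CDKN2B at 8.64 and 1.46 CPM in the S100A9/CST1 and SLC30A8/MAGEA10 lines. Both genes were abundant where their promoters were open. CDKN2A UMIs were found in 2.21%, 4.49% and 0.915% of barcodes of the lines without its promoter peaks, against 88.9% in the HCC827-like line and 63.2% in the DHRS2/ZNF676 line.

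MTAP RNA separated the short stretch from the long ones. It stood at 109 CPM in the A549-like line, whose promoter peak was kept, and at 0.332 and 1.13 CPM in the S100A9/CST1 and SLC30A8/MAGEA10 lines, against 362 and 150 CPM in the HCC827-like and DHRS2/ZNF676 lines. With Leiden clusters the S100A9/CST1 and SLC30A8/MAGEA10 lines stood at 52.3 and 8.91 CPM of MTAP, and with a score share of 0.6 for a called barcode at 7.46 and 2.29 CPM. How much of the A549-like MTAP RNA comes from the 5′ side of the edge was not measured. CDKN2B-AS1 was the exception in the core: although the peak at its start had 0 counts, the A549-like line had 150 UMIs of it (44.0 CPM), against 99.8 and 70.2 CPM in the HCC827-like and DHRS2/ZNF676 lines. The S100A9/CST1 and SLC30A8/MAGEA10 lines had 2 and 0 UMIs, and with Leiden clusters 19.25 and 2.43 CPM. Whether RNA counting used strand is not given in the sources used here. It is thus not known here whether reads of this antisense gene and its partners were told apart by strand. In the A549-like line the partners CDKN2A and CDKN2B had 13 and 0 UMIs, beside the 150 of CDKN2B-AS1. The source of those 150 UMIs was not tested.

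Left of the core, 3 more gene entries followed the same division as MTAP. MIR31HG, the long noncoding host RNA of miR-31, was the most abundant RNA of the span, with 1081 CPM in the A549-like line and 1.33 and 2.04 CPM in the S100A9/CST1 and SLC30A8/MAGEA10 lines, against 674 and 665 CPM in the HCC827-like and DHRS2/ZNF676 lines. With Leiden clusters MIR31HG stood at 183 and 39.7 CPM in the S100A9/CST1 and SLC30A8/MAGEA10 lines, with a score share of 0.6 at 31.5 and 6.53 CPM, and with seed markers only at 7.02 CPM in the S100A9/CST1 line. Its start peak (chr9:21559380-21560270) followed the main values, with 33.3, 0.609 and 0.109 CPM, against 12.1 and 12.7 CPM. KLHL9, an adaptor of a CUL3 ubiquitin ligase, had 24.1, 0.332 and 0.227 CPM of RNA, against 29.7 and 10.5 CPM, and its start peak had 30.6, 0.135 and 0 CPM, against 18.1 and 7.80 CPM. With Leiden clusters KLHL9 RNA stood at 3.61 CPM in the S100A9/CST1 line. Of the 17 type I interferon entries, 16 lie in the same interval and IFNK, at 27524314, lies outside every stretch. Only IFNE, an epithelial interferon, had RNA: 17 UMIs in the A549-like line and 0 in both the S100A9/CST1 and SLC30A8/MAGEA10 lines, against 15 and 7.

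miR-31 itself was not measured, as the library reads genes and not mature microRNAs, but its locus lies in both long stretches and outside the A549-like one. Its mature 5p strand, on the minus strand at chr9:21512158-21512178 (RefSeq, GRCh38.p14), is shown with the seed, bases 2 to 8, in capitals, because MIR31HG carried the most RNA of the span.
hsa-miR-31-5p: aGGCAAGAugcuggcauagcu

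Right of the core, AL157937.1, a noncoding entry, had 85.7 CPM in the A549-like line and 0 UMIs in the S100A9/CST1 and SLC30A8/MAGEA10 lines, against 4.34 and 0.438 CPM in the HCC827-like and DHRS2/ZNF676 lines. Its level was thus small in both lines that keep counts at the locus as well. DMRTA1, a DM domain transcription factor gene, had 4.99 CPM in the A549-like line and 0 UMIs in the other 2, against 15.2 and 2.63 CPM. Farther right, 2 noncoding genes lie near the loosely held edge. LINC01239 (first start at 22646200) had 64, 0 and 1 UMIs, against 635 and 27, so it was at or near 0 in both lines with long stretches. AL391117.1 (chr9:23438671-23438700) lies in the gap between peaks. It had 9 UMIs in the A549-like line (2.64 CPM), 0 in the S100A9/CST1 line and 52 in the SLC30A8/MAGEA10 line (11.8 CPM). The HCC827-like line had 109 UMIs and the DHRS2/ZNF676 line 5 (2.19 CPM). Its RNA was thus also small in the A549-like and DHRS2/ZNF676 lines, which have no empty stretch there. RNA and the first peak beyond the gap gave the same order: the SLC30A8/MAGEA10 line had counts at 23491947 and RNA of AL391117.1, and the S100A9/CST1 line had neither.

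**Figure D4:**
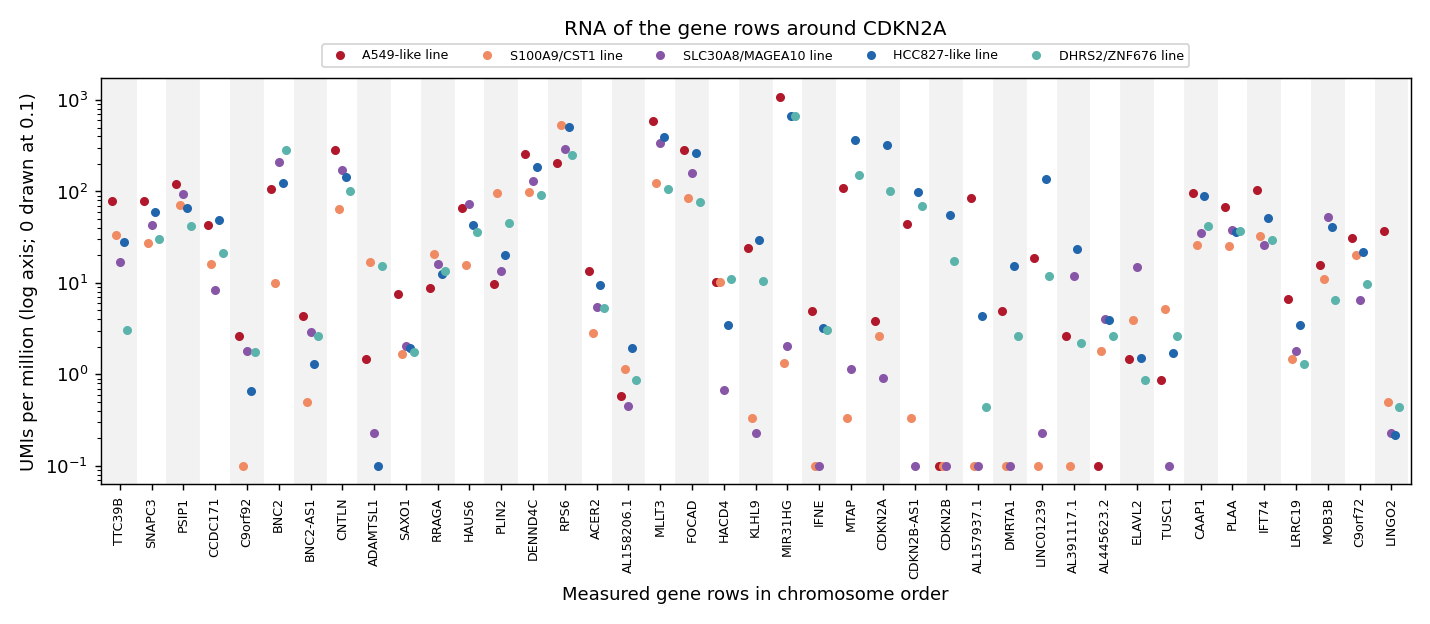
RNA in CPM (UMIs; log axis, 0 drawn at 0.1) for measured gene entries in chromosome order, 1 point per line. From KLHL9 to DMRTA1 the S100A9/CST1 and SLC30A8/MAGEA10 points lie at or under 2.65, and the A549-like points for CDKN2A and CDKN2B lie at 3.81 and 0.

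At the left edge, HACD4 RNA was at 10.3 CPM in the A549-like line, 10.3 CPM in the S100A9/CST1 line and 0.680 CPM (3 UMIs) in the SLC30A8/MAGEA10 line, against 3.47 and 10.96 CPM in the HCC827-like and DHRS2/ZNF676 lines. FOCAD, which encodes focadhesin and whose body crosses the SLC30A8/MAGEA10 edge, had 283, 84.1 and 158 CPM, against 264 and 77.6 CPM. Its RNA was present in all 5. ELAVL2, a neuronal RNA-binding protein gene at the far end of the run, had 14.9 CPM in the SLC30A8/MAGEA10 line, the highest of the 5, and 1.47 and 3.98 CPM in the A549-like and S100A9/CST1 lines, against 1.52 and 0.877 CPM. Its second start peak (chr9:23825980-23826883) had 137 counts in the SLC30A8/MAGEA10 line.

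Counted over measured gene entries, 2 of 3 were low in the A549-like line inside its stretch, 9 of 9 in the S100A9/CST1 line inside its own and 11 of 13 in the SLC30A8/MAGEA10 line inside its run. Over 18605 measured genes of the genome the shares called low were 18%, 19.3% and 20.5% in these lines, and 19.4% and 19.1% in the HCC827-like and DHRS2/ZNF676 lines. In the 27 entries of the span outside every stretch, 3, 4 and 5 were low in the first 3 lines, and 2 and 5 in the last 2. Over all 41 entries the counts were 9, 15 and 16, against 4 and 10.

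The abundant genes outside the stretches were read in every line. RPS6, a protein of the small ribosomal subunit, had 204, 531 and 293 CPM in the A549-like, S100A9/CST1 and SLC30A8/MAGEA10 lines, against 511 and 248 CPM in the HCC827-like and DHRS2/ZNF676 lines. MLLT3, a subunit of the super elongation complex, had 595, 125 and 336 CPM, against 389 and 107 CPM. CNTLN, a centrosomal protein gene, had 281, 63.9 and 173 CPM, against 144 and 101 CPM. DENND4C, an exchange factor for Rab GTPases, had 259, 97.7 and 129 CPM, against 186 and 92.1 CPM. BNC2, a zinc finger protein gene, had 107, 9.95 and 211 CPM, against 125 and 285 CPM, and was low in the S100A9/CST1 line.

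Known partners of the genes in the stretches were not uniformly shifted. Of 18 G1 control genes 17 were measured, and compared with the mean of the other lines 1, 1 and 5 were at least 2-fold higher in the A549-like, S100A9/CST1 and SLC30A8/MAGEA10 lines, against 1 and 0 in the HCC827-like and DHRS2/ZNF676 lines. The shares of all measured genes 2-fold higher were 12.9%, 10.8% and 13.4%, against 7.18% and 8.42%. At least 2-fold lower were 1, 7 and 2 of the 17, against 5 and 3, where 19.6%, 23.5% and 21.9% of all genes were, against 21.4% and 18.9%. The median log2 ratios over the list were -0.13, -0.76 and 0.48, against -0.39 and -0.19, where all genes had -0.04, -0.30 and -0.04, against -0.35 and -0.15.

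Individual members differed by line. CDK4, a kinase that p16INK4a inhibits, had 26.1, 69.4 and 21.8 CPM in the A549-like, S100A9/CST1 and SLC30A8/MAGEA10 lines, against 467 and 38.6 CPM in the HCC827-like and DHRS2/ZNF676 lines. RB1, which encodes RB, had 102.1, 54.6 and 173 CPM, against 67.9 and 28.5 CPM. So CDKN2A RNA and CDK4 RNA were both highest in the HCC827-like line. Of 6 genes of p53 control by ARF, 2, 1 and 0 were 2-fold higher, against 0 and 0, and 0, 1 and 0 were 2-fold lower, against 1 and 1; the shares over all genes are those given for the G1 list. MDM2, the ligase that ARF inhibits, had 247, 63.9 and 66.4 CPM, against 59.9 and 45.2 CPM. Of 14 genes of methionine salvage and PRMT5, all measured, 1, 0 and 2 were 2-fold higher and 1, 2 and 3 lower, against 1 and 0 higher and 1 and 1 lower, beside the same shares over all genes. MTAP is itself on this list, lies in both long stretches and is 1 of the lower genes in the S100A9/CST1 and SLC30A8/MAGEA10 lines. PRMT5, the arginine methyltransferase inhibited by the MTAP substrate, had 14.96, 16.8 and 16.1 CPM, against 19.1 and 14.5 CPM.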

How the data were processed

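Per the submitters' processing notes and the file headers, the authors used Cell Ranger ARC 2.0.0 and the GRCh38 build, which gave a single table of counts for genes and peaks. The deposited gene counts are whole UMIs and the deposited peak counts whole numbers per barcode, neither normalised; 84.2% of the non-zero peak entries were even and 65.5% equalled 2, so a peak interval treats 2 counts as 1 fragment. Starts and ends, other values deposited per the file headers, served as positions and are written 1-based. How cells and peaks were called is not given in the sources used here.

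Barcodes were kept with at least 1000 peak counts, 1000 UMIs, 500 genes and no more than 20% of UMIs mitochondrial (2804 of 3298). Seed markers gave 1267 seed barcodes, and the 100 leading genes per line outside chromosome 9 gave a score. A barcode with at least 0.8 of its score in 1 line was called, and 1021 were not. No doublet caller was run, and how many mixed droplets were left out or called was not tested. Leiden clusters (scanpy 1.11.5, 2000 genes, 30 components, 20 neighbours) put 1781 of 1783 in the same line. Counts were summed per line and scaled to CPM. Intervals are at 95%: exact Poisson for levels, conditional binomial for ratios, Clopper-Pearson for shares. Peaks needed 100 counts and genes 20 UMIs. The run search was tested on simulated data. Alternatives included trimmed-mean factors (edgeR 4.0.16, R 4.3.3). The span, genes, markers and lists were chosen with earlier results of these data known. Genes named are the 9p21 core, the 2 measured genes on each side of every edge and the 10 with the highest CPM; peaks named are those at edges, gene starts and the 3 highest in a stretch. IDs matched RefSeq by symbol.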

Additional observations from a re-analysis of the deposited data

How the results depend on the processing

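Where an alternative found a run across CDKN2A in the A549-like, S100A9/CST1 or SLC30A8/MAGEA10 line, its width and counts could move. With seed markers only, the A549-like run had 0 peaks and the S100A9/CST1 stretch 1.30% of the highest line. With Leiden clusters, which take in barcodes of no clear line, the A549-like run had 12 peaks at 1.88%, the S100A9/CST1 run started at 21.58 Mb at 16.2%, and the SLC30A8/MAGEA10 run had 57 peaks, ended at 22.45 Mb and stood at 4.79%. With peaks counted as present or absent per barcode, the A549-like run had 0 peaks. The S100A9/CST1 run then had 11 peaks from 21.33 to 23.83 Mb at 5.49%, and the SLC30A8/MAGEA10 run 10 peaks from 21.33 to 22.45 Mb at 1.25%. At 400 counts per peak each of the 3 lines had 0 peaks, as too few were left. At 1 count per peak the A549-like run had 23 peaks, the S100A9/CST1 run 111, ending at 23.49 Mb, and the SLC30A8/MAGEA10 run 115, ending at 22.68 Mb at 1.03%. Low gene entries at 1 UMI were 20, 31 and 30 in these lines, against 16 and 27 in the HCC827-like and DHRS2/ZNF676 lines. A penalty of 2 took the SLC30A8/MAGEA10 run to 25.68 Mb at 6.04%. In bins of 250 kb the S100A9/CST1 stretch started at 21.25 Mb and the SLC30A8/MAGEA10 one ran from 21 to 22.5 Mb; the A549-like one gave no value. A score share of 0.95 left 1 barcode and gave none either.

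Alternatives added after seeing the data were these. A minimum score of 8 in every line left 0 peaks for the A549-like line. Nearest peaks with 10 counts gave 23 peaks in the A549-like line, 111 up to 23.49 Mb in the S100A9/CST1 line, and 116 from 20.88 to 22.68 Mb at 1.11% in the SLC30A8/MAGEA10 line. A score share of 0.6 gave 0.650%, 3.86% (ending at 23.6 Mb) and 4.49% in the 3 lines. Where no construction is named, the cause was not tested. Trimmed-mean scaling, the absence of a barcode filter and limits of 10% or 30% for a low peak moved no run or low-entry value beyond its limit. RNA levels could move. With trimmed-mean scaling CDKN2A in the HCC827-like line reached 364 CPM, above its interval of 302 to 335 CPM. Without a barcode filter MIR31HG fell to 635 CPM in the HCC827-like line and 591 CPM in the DHRS2/ZNF676 line, both under their intervals.

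Over the alternatives CDKN2A RNA lay between 311 and 364 CPM in the HCC827-like line and between 93.8 and 115 CPM in the DHRS2/ZNF676 line. It ranged from 3.51 to 9.90 CPM in the A549-like line, from 2.28 to 48.3 CPM in the S100A9/CST1 line and from 0.675 to 6.64 CPM in the SLC30A8/MAGEA10 line. RNA and peak counts share barcodes, but they were not paired barcode by barcode here. With 1 library of each kind, no paired test over libraries was possible. The share of DNA lost was not measured, and stretches without peaks limit each edge.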

Other observations

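Beyond the stretches, single peaks of the flanks were near 0 in 1 line. At TUSC1, an intronless gene named as a tumour suppressor candidate, the peaks starting at 25677305 and 25678061 had 0.218 and 0.871 CPM in the SLC30A8/MAGEA10 line, against 25.5 and 26.2 CPM in the HCC827-like line. TUSC1 had 0 UMIs in the SLC30A8/MAGEA10 line and 31 in the S100A9/CST1 line, the most of the 5. In the S100A9/CST1 line the 6 peaks from 25963968 to 26293612 had 0, 2, 0, 2, 0 and 0 counts, against 21, 4, 19, 60, 41 and 4 in the HCC827-like line. The SLC30A8/MAGEA10 line also had a second run of 10 low measured peaks, from 27626084 to 29774244, at 8.38% of the HCC827-like level (95% interval 6.07% to 11.4%), a level well above that of its stretch at CDKN2A. LINGO2, which starts in that run, had 37.3 CPM in the A549-like line and at most 0.498 CPM in the others. Along the rest of the short arm, outside 20.9 to 23.9 Mb, peaks summed to 10254, 8244 and 7590 CPM in the A549-like, S100A9/CST1 and SLC30A8/MAGEA10 lines, against 9830 and 6367 CPM in the HCC827-like and DHRS2/ZNF676 lines.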
